A study of Mus musculus with 12 samples.

Results

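Mouse embryonic fibroblasts that received a virus coding for a protein labelled Chimera were compared with the same cells given Myf5 at each of 2 labelled virus doses. These are 3 of the 12 RNA-seq libraries of the series: 1x Chimera, 1x Myf5 and 2x Myf5. They were chosen by their titles alone, and the question was how far muscle genes stood above Myf5 in the Chimera library. All 12 libraries come from fibroblasts of the genotype MyoD-/-; Myf5-/-, so the cells of every group, controls included, lack both genes. The cells were exposed to lentivirus with polybrene, moved to differentiation medium after 24 h and harvested 20 h later, and polyA RNA was sequenced. Beside the 3 libraries stand no virus, GFP virus at MOI 15, 30, 60 and 120, 1x GFP, 1x MyoD_A, 2x MyoD and 1x MyoD_B. MyoD_B came from a second virus batch that was balanced against the Chimera. The makeup of the Chimera protein and the relation of 1x to an MOI are not given in the sources used here. Fibroblasts carry no muscle programme of their own, so the cells serve as a test bed for what a factor turns on, not as muscle.

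Myf5, MyoD and myogenin belong to the myogenic regulatory factors, basic helix-loop-helix proteins that bind E-boxes (CANNTG) together with E proteins. In the embryo Myf5 and MyoD commit cells to the muscle lineage, and myogenin drives the later step in which committed cells leave the cell cycle, fuse and make sarcomeres. Sarcomeres are built of thick filaments of myosin and thin filaments of actin, troponin and tropomyosin, anchored at Z-discs.

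Each condition is 1 library, so no p-value is given. The Myf5 doses are not replicates of each other. Levels are CPM, counts scaled to 1000000 per library, over all genes except the 37 mitochondrial ones, and intervals are exact 95% intervals that cover counting error only. The libraries also sit in separate tables: both Myf5 libraries in the first, with fractional counts and no mitochondrial reads, and the Chimera and MyoD_B in the second, with whole counts and mitochondrial shares of 4.05% and 4.18%. Table and virus cannot be told apart in the Chimera to Myf5 ratio. MyoD gives a gauge of what crossing the tables can look like, because 1x MyoD_B and 1x MyoD_A carry the same factor at the same labelled dose. Their ratio (called the MyoD gauge here) crosses the same tables and also the virus batch, and it stands beside the results. A ratio divided by the gauge is called bridged. The Chimera library held 25086096 counts and 1x and 2x Myf5 held 68302864 and 68495638. A count of 0 allows up to 0.125 CPM in the Chimera and 0.0439 and 0.0438 CPM in 1x and 2x Myf5 (3 counts).

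The promoters of 6 genes are shown, since they stand for the different outcomes described here. Tnni1 has 2 promoters in the RefSeq table and the first listed is shown, while each other gene has 1. Myogenin, Actc1, Tnni1 and Cdh15 were far higher with the Chimera than with Myf5, and Chrng and Chrnb1 were not. Each run is 300 bases, from 250 before to 50 after a RefSeq transcript start in build GRCm38.p6, written 5′ to 3′ on the gene's strand, with every CANNTG E-box in capitals. The positions are chr1:134289754-134290053 (plus strand) for Myog, chr2:114052826-114053125 (minus) for Actc1, chr1:135799171-135799470 (plus) for Tnni1, chr8:122848124-122848423 (plus) for Cdh15, chr1:87205561-87205860 (plus) for Chrng and chr11:69795888-69796187 (minus) for Chrnb1.
Myog: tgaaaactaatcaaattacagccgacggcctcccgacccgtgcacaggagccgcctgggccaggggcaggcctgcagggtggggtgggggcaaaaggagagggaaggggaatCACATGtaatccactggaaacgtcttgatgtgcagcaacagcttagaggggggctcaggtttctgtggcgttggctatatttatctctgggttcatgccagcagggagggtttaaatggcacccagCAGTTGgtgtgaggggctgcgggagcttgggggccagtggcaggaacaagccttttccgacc
Actc1: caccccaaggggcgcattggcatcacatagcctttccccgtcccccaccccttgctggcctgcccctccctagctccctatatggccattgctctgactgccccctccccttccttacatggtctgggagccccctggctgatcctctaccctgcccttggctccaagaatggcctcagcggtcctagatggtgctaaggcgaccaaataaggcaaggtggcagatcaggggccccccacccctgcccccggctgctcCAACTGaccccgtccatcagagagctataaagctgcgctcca
Tnni1: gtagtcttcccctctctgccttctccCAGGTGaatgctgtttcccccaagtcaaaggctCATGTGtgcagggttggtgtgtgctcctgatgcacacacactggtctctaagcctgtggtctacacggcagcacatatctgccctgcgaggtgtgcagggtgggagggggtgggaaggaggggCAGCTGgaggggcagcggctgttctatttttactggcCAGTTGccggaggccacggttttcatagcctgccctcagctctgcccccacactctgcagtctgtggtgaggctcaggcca
Cdh15: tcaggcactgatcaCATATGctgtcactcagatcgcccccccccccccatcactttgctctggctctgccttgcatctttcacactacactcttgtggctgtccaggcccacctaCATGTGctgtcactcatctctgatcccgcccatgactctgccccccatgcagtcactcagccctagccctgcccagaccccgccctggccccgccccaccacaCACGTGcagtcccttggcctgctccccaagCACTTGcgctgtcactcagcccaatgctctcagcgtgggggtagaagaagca
Chrng: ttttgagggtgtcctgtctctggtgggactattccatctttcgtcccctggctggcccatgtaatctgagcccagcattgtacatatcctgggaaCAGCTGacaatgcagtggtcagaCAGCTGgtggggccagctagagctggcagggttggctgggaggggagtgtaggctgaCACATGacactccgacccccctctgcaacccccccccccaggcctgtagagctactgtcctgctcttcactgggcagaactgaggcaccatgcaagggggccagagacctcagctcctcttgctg
Chrnb1: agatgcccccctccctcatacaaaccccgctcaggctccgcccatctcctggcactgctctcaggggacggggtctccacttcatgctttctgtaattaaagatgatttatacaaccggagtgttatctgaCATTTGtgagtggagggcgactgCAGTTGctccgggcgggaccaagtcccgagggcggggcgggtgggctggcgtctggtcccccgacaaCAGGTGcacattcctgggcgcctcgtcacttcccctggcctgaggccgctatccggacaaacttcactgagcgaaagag

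CANNTG reads the same on both strands and was found 2 times in the Myog window, 1 time in Actc1, 4 times each in Tnni1 and Cdh15, and 3 times each in Chrng and Chrnb1. The narrower form CAGCTG, a subset of CANNTG, occurred 2 times in Chrng, 1 time in Tnni1 and in none of the other four windows. Of all 32851 promoters in the RefSeq table, 72.3% held a CANNTG and 16.3% a CAGCTG. The shares were 76.7% and 30.6% in the 180 promoters matched to 134 genes of the muscle lists described below. The windows of the 4 genes that were higher held 1 to 4 CANNTG, and those of the other pair 3 each. A match of letters does not show binding.

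The transgenes were read first. Reads on Myf5 stood at 149.5 CPM in 1x Myf5, 249 CPM in 2x Myf5 and 172 CPM in the Chimera, against 17.3 CPM in 1x GFP and 11.9 to 15.3 CPM in the MyoD libraries. The Chimera library thus lay between the Myf5 doses on this gene, 1.15-fold above 1x and 1.45-fold below 2x. Reads on Myod1 were 23.0 CPM in the Chimera against 5.36 and 5.21 CPM with Myf5 and 338 CPM in MyoD_B. No library without MyoD virus other than the Chimera was above 5.99 CPM on Myod1. The null cells still give reads on both genes, so neither is at 0 in the controls.

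Myogenin, the factor that acts after MyoD and Myf5 in differentiation, was the clearest difference among the regulators. It was listed at 0 in the 4 GFP libraries with a stated MOI and at 0.503 CPM in 1x GFP, 5.91 CPM in 1x Myf5, 29.4 CPM in 2x Myf5 and 313 CPM in the Chimera. The MyoD libraries held 736 CPM in MyoD_B and 270 and 763 CPM in 1x and 2x of the first batch. The Chimera level was 52.9-fold that of 1x Myf5 (47.9 to 58.6) and 10.7-fold that of 2x Myf5 (10.1 to 11.2). The MyoD gauge for Myog was 2.72-fold, so the bridged ratio to 2x Myf5 was 3.90-fold. Every library that received a myogenic factor lay above every control, and the Chimera lay inside the MyoD range.

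**Figure D1:**
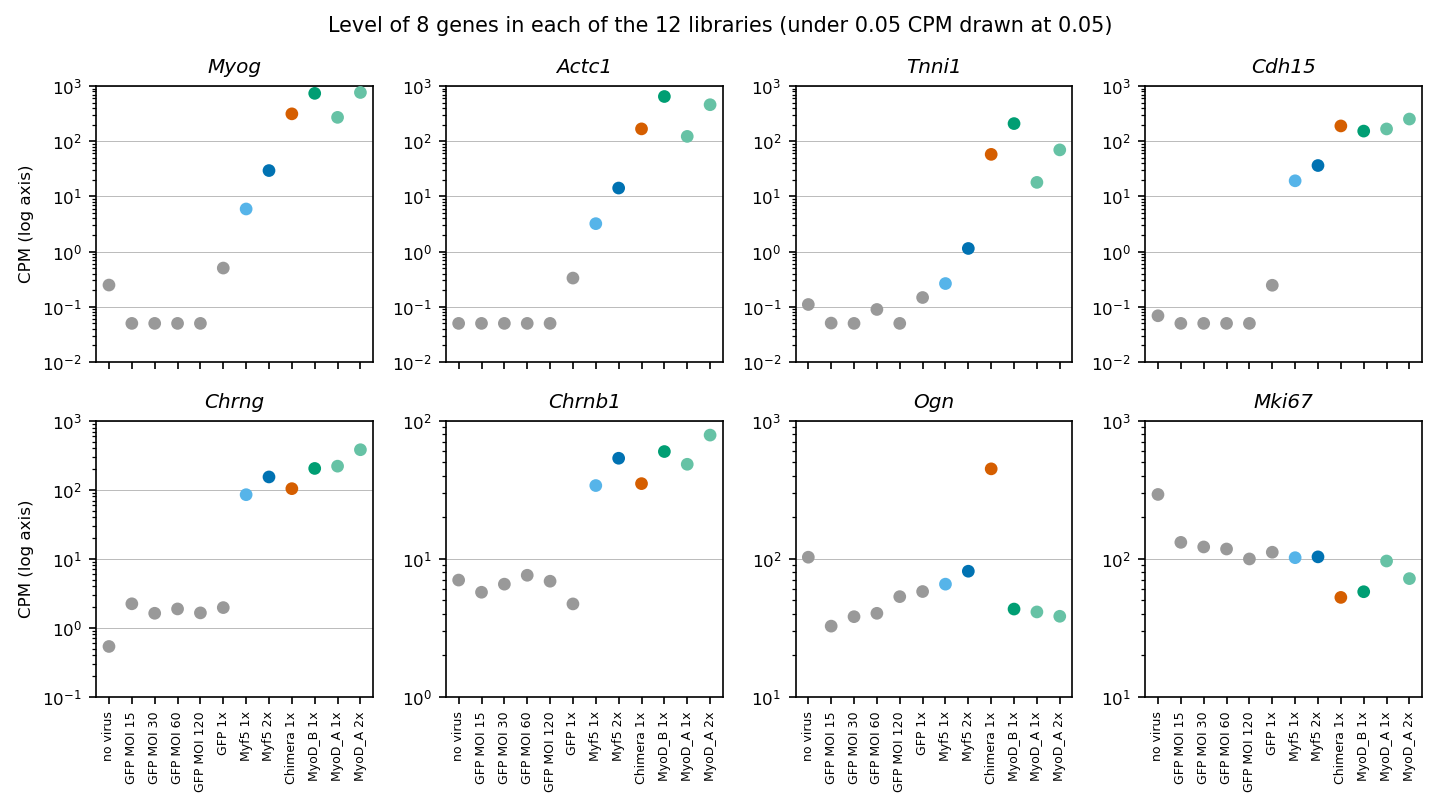
Level in CPM (log axis) of 8 genes in each of the 12 libraries, 1 point per library, with levels under 0.05 CPM drawn at 0.05. Myog, Actc1, Tnni1 and Cdh15 are higher in the Chimera (orange) than in either Myf5 library (blue), Chrng and Chrnb1 lie between or near the Myf5 doses, Ogn is highest in the Chimera, and Mki67 is lowest there.

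Over the whole transcriptome, 13876 genes had at least 1 CPM in 1 or more of the 3 libraries. A gene counts as apart at 2-fold or more, with 0.1 CPM added to each level. The Chimera was higher than 1x Myf5 in 1150 genes (8.29%) and lower in 826 (5.95%), and against 2x Myf5 the counts were 1062 (7.65%) and 721 (5.2%). It was higher than both in 901 genes (6.49%) and lower than both in 620 (4.47%), which are the background for every list count in the text. The MyoD gauge, which compares a factor with itself, was 2-fold or more higher in 772 genes (5.56%) and lower in 470 (3.39%). Within the first table, 2x Myf5 was 2-fold higher than 1x in 207 genes and lower in 25. After bridging, 351 genes (2.53%) were higher than both Myf5 libraries and 193 (1.39%) lower. The median log2 ratio over all genes was 0.04 against 1x, 0.03 against 2x and 0.03 for the gauge.

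The Chimera to 2x Myf5 ratio and the gauge share no library, yet they moved together across genes. Pearson's r was 0.80 and Spearman's rho 0.66 over 13876 genes, and 0.70 and 0.62 over the 11982 that RefSeq lists as protein coding. Genes are not independent replicates, and both ratios share the pair of tables. Of the 901 genes higher with the Chimera, 528 (58.6%) were also 2-fold higher in MyoD_B than in MyoD_A, and 231 were still 2-fold higher after bridging. Of the 620 lower genes, 234 (37.7%) were also lower in MyoD_B, and 119 were still lower after bridging. The extremes are pseudogenes and predicted genes: Gm11407 read 0.0293 and 0 CPM with Myf5, 113 CPM with the Chimera and 110.4 CPM with MyoD_B. In the other direction, Gm4735 read 19.8 and 21.1 CPM with Myf5 and 0.0415 CPM with the Chimera, and was at 0 in MyoD_B. Eef1a2, a translation elongation factor of muscle and nerve, is also among the 10 most lowered, at 6.79 and 7.11 CPM with Myf5 and 0.332 CPM with the Chimera, but it read 0.353 CPM in MyoD_B and 7.16 CPM in MyoD_A. Such genes differ by table for MyoD as well, and they are not read as Chimera responses here.

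**Figure D2:**
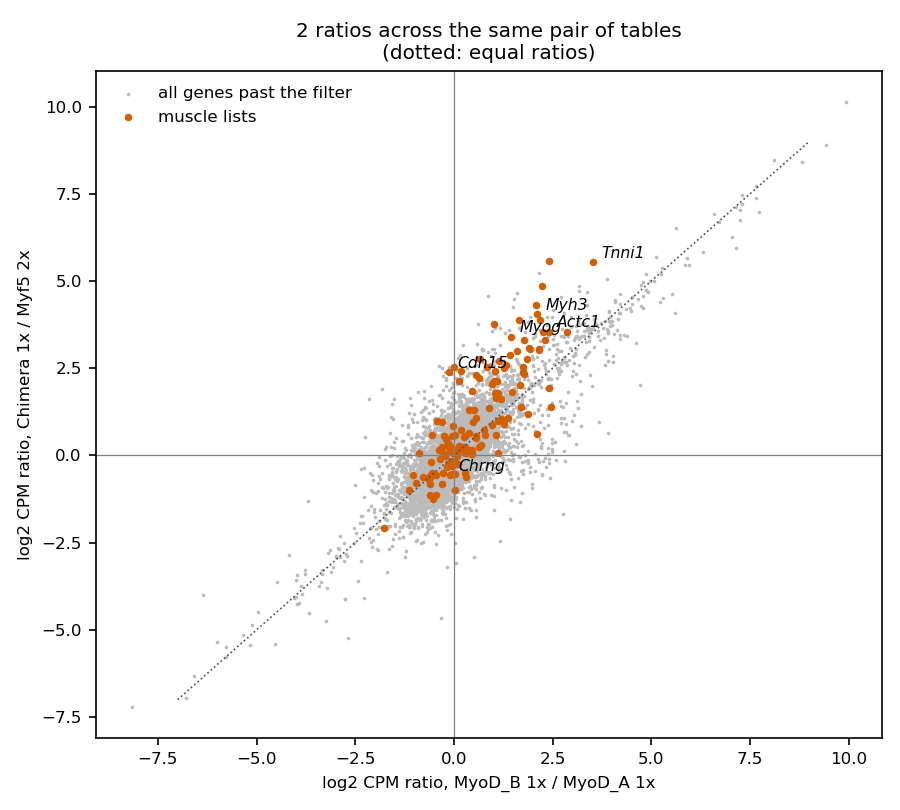
Log2 CPM ratio of Chimera 1x to Myf5 2x (vertical axis) against that of MyoD_B 1x to MyoD_A 1x (horizontal axis), 1 point per gene for 13876 genes, with muscle list members in orange and equal ratios on the dotted line. The points follow the dotted line at both ends, and Myog, Actc1, Tnni1, Myh3 and Cdh15 lie above it while Chrng lies below 0 on the vertical axis.

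Muscle genes as a class were higher with the Chimera. The 9 muscle lists hold 190 genes, of which 138 passed the level filter, and 55 of these were 2-fold or more higher than both Myf5 libraries while 1, Myl6b, was lower. The background for those counts is the 6.49% and 4.47% given above. The median log2 ratio of the 138 was 0.92 against 1x Myf5 and 0.59 against 2x, where the gauge over the same genes was 0.37. After bridging, 35 were higher than both and none lower, with medians of 0.57 and 0.31. Bridged shares over all genes were 2.53% higher and 1.39% lower. A gene that passed the filter only through its Chimera level had to differ. Of the 110 members with at least 1 CPM in both Myf5 libraries, 30 were 2-fold higher than both, where 459 of all 13017 such genes were. The medians of the 110 were 0.44 and 0.26.

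Compared by rank alone, 101 of the 138 muscle genes lay above both Myf5 libraries by any amount, where 6592 of all 13876 genes did (47.5%). Of these 101, 22 were below all 3 MyoD libraries, 66 within the MyoD range and 13 above it, where the 6592 split into 533, 2185 and 3874. Measured within the second table only, 75 of the 101 were lower in the Chimera than in MyoD_B, as were 2346 of the 6592.

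**Figure D3:**
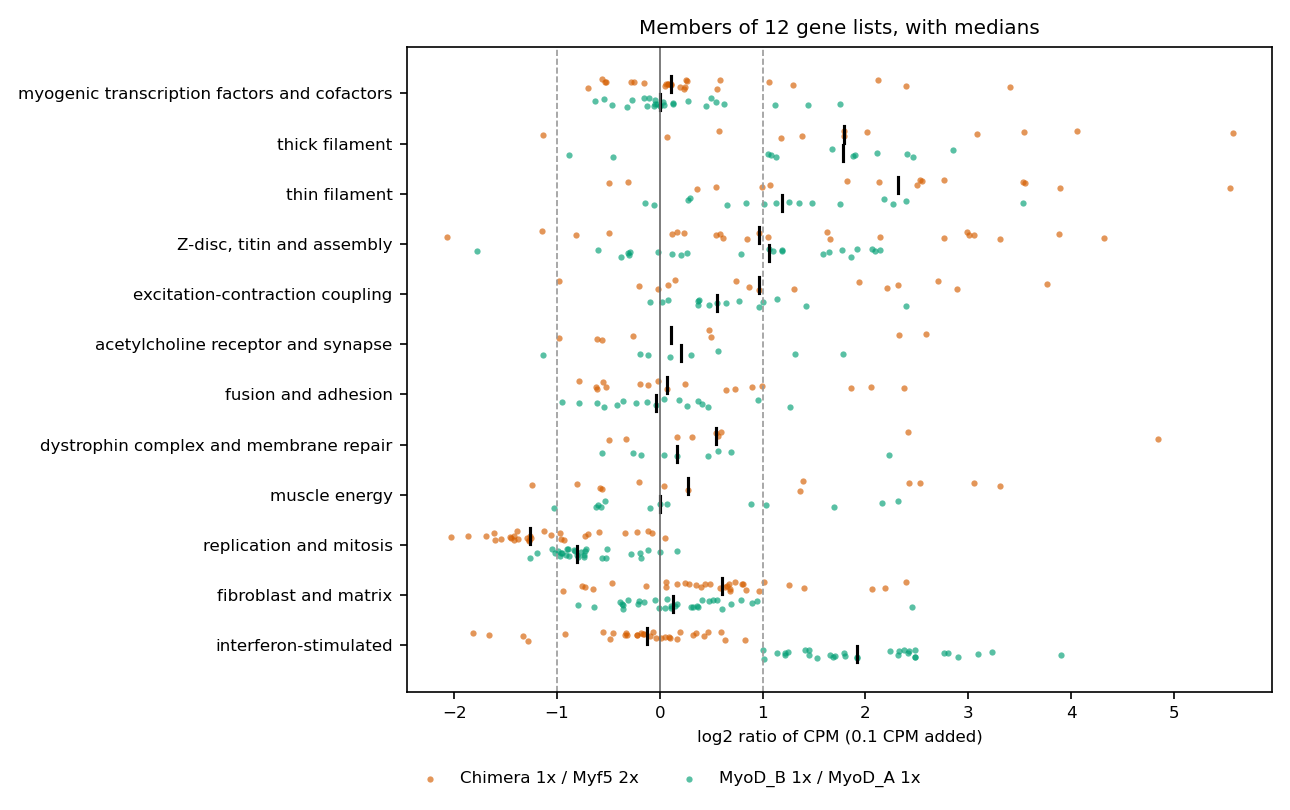
Log2 CPM ratios of the members of 12 gene lists that passed the filter, for Chimera 1x over Myf5 2x (orange) and MyoD_B 1x over MyoD_A 1x (green), with black bars at the medians and dashed lines at 2-fold. Thin and thick filament genes lie farthest right in the orange ratio, with medians of 2.31 and 1.79 beside green medians of 1.19 and 1.78. The interferon-stimulated list has the largest green median, 1.92, with an orange median of -0.13. Fusion, synapse and transcription factor medians are near 0.

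By median ratio, thin filament genes showed the widest gap between the Chimera and Myf5 among the muscle lists. Of 19 written, 16 passed the filter and 11 were higher than both Myf5 libraries, with median log2 ratios of 3.34 and 2.31 against 1x and 2x. The gauge median was 1.19, and 8 members were higher than both after bridging. At 1 CPM or more in both Myf5 libraries, 7 of 12 members were higher than both, with medians of 1.86 and 1.44. Thick filament medians under that filter were 1.66 and 1.38, so these lists then differed little. Relative to 1x GFP, the list's median stood at 0.53 and 1.40 on the log2 scale in 1x and 2x Myf5, 4.40 in the Chimera, 4.94 in MyoD_B and 3.80 and 5.75 in 1x and 2x MyoD of the first table. On this list 2x Myf5 reached less than 1x MyoD_A, and the Chimera lay between the first-table MyoD doses.

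Tnni1, the troponin I of slow fibres, read at most 0.147 CPM in the GFP libraries, 0.264 CPM in 1x Myf5, 1.14 CPM in 2x Myf5 and 57.7 CPM in the Chimera. That is 50.7-fold above 2x Myf5 (40.3 to 64.5), the largest ratio of the list. Tnni1 also had a gauge of 11.6-fold, with 209 CPM in MyoD_B and 17.9 CPM in MyoD_A, which leaves a bridged ratio of 4.03-fold. Actc1, the cardiac actin that embryonic skeletal muscle also makes, read at most 0.331 CPM with GFP, 3.21 and 14.2 CPM with Myf5 and 167 CPM with the Chimera. Its ratio was 52.1-fold against 1x and 11.8-fold against 2x (11.003 to 12.7), and 2.22-fold when bridged. Tnnt2, the cardiac and embryonic troponin T, behaved alike, at 5.48, 21.9 and 256 CPM, with a bridged ratio of 2.42-fold to 2x Myf5. Acta1, the adult skeletal actin, read 1.74, 5.93 and 40.9 CPM, and its gauge of 1.58-fold was small, so its ratio of 6.90-fold to 2x Myf5 was 4.32-fold after bridging. The gauge was above 4-fold for Tnni1, Actc1 and Tnnt2 and under 2-fold for Acta1. Because the gauge also crosses the virus batch, how far each gap depends on the tables cannot be told.

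Thick filament genes, which encode the myosins and their partners, were similar in direction but followed the gauge more closely. Of 24 written, 12 passed the filter, 9 were higher than both Myf5 libraries and Myl6b was lower. Median log2 ratios were 2.70 and 1.79, but the gauge median was also 1.78, and 3 members were higher than both after bridging. At 1 CPM or more in both Myf5 libraries, 5 of 7 members were higher than both, with medians of 1.66 and 1.38. Myh3, the embryonic myosin heavy chain, read 1.01 CPM in 1x Myf5, 4.44 CPM in 2x Myf5, 75.6 CPM in the Chimera and 136 CPM in MyoD_B, with a ratio of 17.0-fold to 2x Myf5 (15.1 to 19.3) and 3.86-fold when bridged. Mylk4, a kinase of the myosin light chain kinase family, had 0 and 8 counts with Myf5 and 246 with the Chimera. It was at least 233-fold higher than 1x Myf5, taking 3 counts as the floor, though the exact interval reaches down to 188-fold. Against 2x it was 87.5-fold higher (43.7 to 205), with a gauge of 5.46-fold and a bridged ratio of 9.005. Myl6b, a light chain found outside muscle too, went the other way, at 21.6 and 22.4 CPM with Myf5 and 10.1 CPM with the Chimera.

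Z-disc, titin and sarcomere assembly genes followed. Of 35 written, 23 passed and 11 were higher than both Myf5 libraries, with medians of 2.01 and 0.97. The gauge median was 1.07, and 7 members were still higher after bridging. At 1 CPM or more in both Myf5 libraries, 6 of 17 members were higher than both, with medians of 0.91 and 0.59. Smyd1, a methyltransferase needed to assemble myosin, read 0.937 and 2.45 CPM with Myf5 and 50.9 CPM with the Chimera, which is 20.7-fold above 2x Myf5 and 4.76-fold after bridging. Synpo2l, a Z-disc protein, read 1.60, 3.20 and 48.4 CPM, with a bridged ratio of 4.71-fold. Titin, the giant spring of the sarcomere, read 1.08, 4.39 and 35.5 CPM. Actn3, the alpha-actinin of fast fibres, was lower with the Chimera, at 11.6, 30.2 and 7.10 CPM, but MyoD_B (8.99 CPM) was also lower than MyoD_A (31.1 CPM) and the bridged ratio to 2x Myf5 was 0.816.

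Excitation-contraction coupling genes, which link the membrane signal to calcium release, had 7 of 15 members higher than both Myf5 libraries (22 written). Their medians were 1.96 and 0.97, with a gauge of 0.55 and 5 members higher after bridging. At 1 CPM or more in both Myf5 libraries, 4 of 12 members were higher than both, with medians of 1.19 and 0.80. Ryr1, the calcium release channel, read at most 0.536 CPM in the GFP libraries, 3.18 and 9.48 CPM with Myf5, 62.4 CPM with the Chimera and 107 CPM in MyoD_B. The ratio to 2x Myf5 was 6.58-fold (5.998 to 7.23) and 2.97-fold when bridged. Cacna1s, the voltage sensor paired with it, was near the floor, with 0 and 2 counts with Myf5 and 40 with the Chimera, and its interval of 14.8-fold to 486-fold above 2x Myf5 shows how little the depth fixes the ratio.

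Genes of the acetylcholine receptor and the neuromuscular synapse behaved differently from the sarcomere. Of 12 written, 8 passed, and only Chrna1 and Dok7 were higher than both Myf5 libraries. The list's medians were 0.52 and 0.11 with a gauge of 0.20. Relative to 1x GFP its median was 2.54 in 1x Myf5, 3.90 in 2x Myf5, 3.90 in the Chimera, 4.44 in MyoD_B and 4.39 and 4.93 in the first-table MyoD libraries. At the 2x dose Myf5 alone thus brought this list to the level of the 1x Chimera, in contrast to the thin filament list. At the matched 1x dose Myf5 lay below the Chimera on both lists. A test of that contrast between the lists was not made.

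Chrng, the fetal receptor subunit, read 1.62 to 2.23 CPM in the GFP libraries, 85.0 CPM in 1x Myf5, 154 CPM in 2x Myf5, 104 CPM in the Chimera and 204 to 381 CPM with MyoD. Chrnd read 32.1, 52.7 and 44.2 CPM in the same order and Chrnb1 34.0, 53.6 and 35.1 CPM. The Chimera lay between the Myf5 doses on all 3 subunits, as it did for reads on Myf5 itself. For Chrng its ratio to 1x Myf5 was 1.22-fold (1.17 to 1.28) and to 2x Myf5 0.677-fold (0.648 to 0.707), and the gauge was close to 1 (0.927). Lrp4, the agrin receptor, was lowest in the Chimera of these libraries, at 34.4, 45.1 and 22.8 CPM, with a gauge of 0.456 and a bridged ratio of 1.11 to 2x. Rapsn, which clusters the receptor, read 14.9, 15.96 and 22.3 CPM. Chrna1, the alpha subunit, read 0.937, 1.18 and 6.36 CPM, and its bridged ratio was 1.46-fold.

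Fusion and adhesion genes were mostly level. All 17 passed the filter, 3 were higher than both Myf5 libraries (Cdh15, Mymk and Adam12), and the medians were 0.29 and 0.07 with a gauge of -0.04. Cdh15, or M-cadherin, an adhesion molecule of myoblasts, read at most 0.245 CPM with GFP, 19.2 and 36.3 CPM with Myf5, 189 CPM with the Chimera, 152 CPM in MyoD_B and 167 and 252 CPM with MyoD of the first table. Its ratio to 2x Myf5 was 5.21-fold (4.96 to 5.48), and with a gauge of 0.915 the bridged ratio was 5.69-fold. Cdh15 is thus a muscle gene whose gap stays where the gauge is near 1. Mymk, the membrane protein that starts fusion, read 5.80, 22.3 and 92.8 CPM (4.16-fold above 2x, 2.14-fold bridged). Mymx, the small protein that completes fusion, read 4.38, 8.61 and 16.1 CPM, 1.87-fold above 2x and 0.773 after bridging.

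The remaining muscle lists moved less. Of 25 transcription factors and cofactors past the filter (30 written), 5 were higher than both Myf5 libraries (Myod1, Myog, Mef2a, Rbm24 and Celf2), with medians of 0.31 and 0.11 and a gauge of 0.00. Myod1 is counted there, and whether its reads come from the virus was not tested. Mef2a, a MADS-box partner of these factors, read 101, 127 and 313 CPM. Dystrophin complex genes had 2 of 9 higher (13 written; medians 0.42 and 0.55, gauge 0.17). Sgca, a sarcoglycan of the muscle membrane, was one of them, at 0.996, 1.85 and 10.3 CPM. Its gauge was 1.13-fold and its bridged ratio 4.75-fold to 2x Myf5. None of the 7 dystrophin complex genes with at least 1 CPM in both Myf5 libraries was higher than both. Muscle energy genes had 5 of 13 higher (18 written; medians 0.46 and 0.28, gauge 0.00). Only 1 of the 8 with at least 1 CPM in both Myf5 libraries was higher than both, and their medians were -0.04 and -0.38. Ckm, the muscle creatine kinase, read 0.220, 1.18 and 12.6 CPM, 10.6-fold above 2x Myf5 and 1.98-fold bridged, while Pygm, the muscle glycogen phosphorylase, read 1.21, 3.10 and 1.25 CPM.

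Most genes that MyoD raised were higher with the Chimera than with Myf5. The set was chosen without the 3 libraries, as the genes whose level in both first-table MyoD libraries was at least 4 times the highest GFP library. Of these genes, 165 passed the filter. Among the 165, 117 were 2-fold or more higher in the Chimera than in both Myf5 libraries and 2 were lower, against the background of 6.49% and 4.47%. The level filter uses the 3 libraries, and a gene that passed it only through the Chimera had to differ. Of the 95 members with at least 1 CPM in both Myf5 libraries, 57 were higher than both, where 459 of 13017 such genes were. Over the 165 the medians were 2.71 and 1.71 with a gauge of 0.84, and 84 were higher than both after bridging. The Chimera level was above every GFP library in 163 of the 165 and in 4718 of all 13876 genes. The rule asks for a high MyoD_A level, which holds the gauge down and the bridged ratio up for this set. In rank terms 148 lay above both Myf5 libraries, of which 46 were below all MyoD libraries, 89 within their range and 13 above, and 116 were below MyoD_B. The 113 members outside the muscle lists included 80 that were higher than both.

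The MyoD-raised genes were also grouped by how far Myf5 itself had raised them. Of the 37 MyoD-raised genes that 2x Myf5 held under 2-fold over GFP, 35 were higher than both with the Chimera, and 26 after bridging. The 24 that 2x Myf5 raised 16-fold or more included 15 that were higher, and 11 after bridging. Intermediate groups, at 2-fold to 4-fold and 4-fold to 16-fold, had 27 of 47 and 40 of 57 (16 and 31 after bridging). Because these groups were split by the 2x Myf5 level, a low Myf5 value helps a gene into the first group and raises its ratio. Genes low in both Myf5 and GFP also pass the level filter mainly through a high Chimera level, so the first count is close to fixed, and the counts support nothing.

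Several genes of the set went past the MyoD levels too. H19, an imprinted long noncoding RNA that is abundant in developing muscle, read 35.6 and 56.9 CPM with Myf5, 720 CPM with the Chimera and 203 to 459 CPM with MyoD, and its GFP libraries ranged from 1.36 CPM at 1x to 34.6 CPM. Its ratio was 12.6-fold to 2x Myf5 (12.2 to 13.1) and 5.59-fold bridged. Igfbp5, a secreted binder of insulin-like growth factors made by differentiating myoblasts, read 1503 and 2203 CPM with Myf5, 5636 CPM with the Chimera and 3904 to 4815 CPM with MyoD, with a gauge of 0.90 and a bridged ratio of 2.84-fold. Both genes were higher in the Chimera than in any of the other 11 libraries. At the other end, Hid1 (2.25, 3.50 and 3.70 CPM) and Myom3 (0.425, 1.14 and 1.20 CPM) were among the members nearest to 2x Myf5.

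The genes 4-fold above GFP at both Myf5 doses numbered 31. Myf5, the gene that virus delivers, is counted among them and is not read as a response. The choice uses the Myf5 levels, so the ratios are descriptive. In the Chimera, 22 were 2-fold higher than 1x Myf5, 19 were higher than both doses and none was lower than both. Those below 2x Myf5 were Chrnd, Lama5, Myf5, Chrng, Chrnb1, Itga7, Dusp13 and Lrp4. Itga7, the laminin receptor of muscle, read 41.6, 57.0 and 33.0 CPM, and its gauge was 0.516. The genes at the top of the set are Actc1, Myog, Btbd17, Unc45b and Acta1. Unc45b, a myosin chaperone, read 1.16, 5.23 and 36.1 CPM, 6.92-fold above 2x Myf5 and 1.88-fold bridged.

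**Figure D4:**
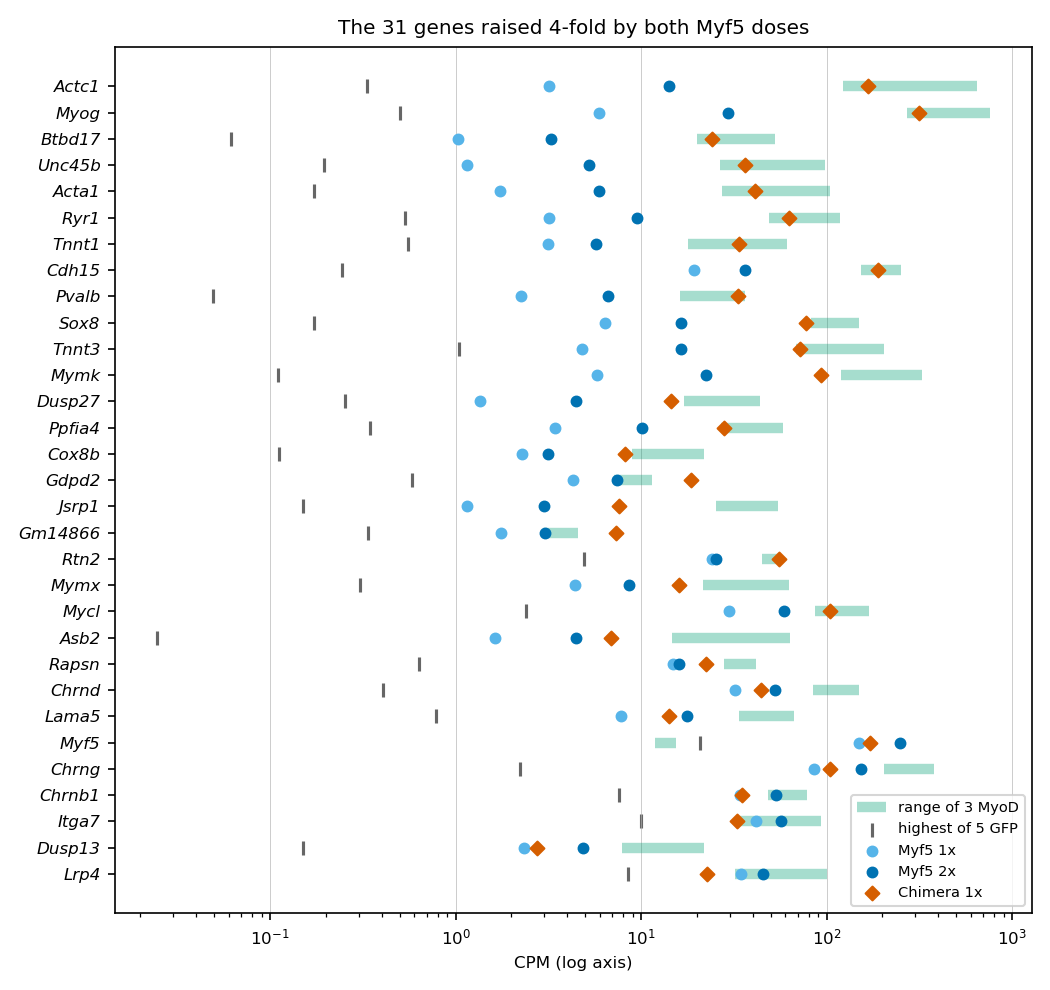
CPM (log axis) of the 31 genes raised 4-fold by both Myf5 doses (the delivered Myf5 included), sorted by the Chimera to 2x Myf5 ratio. Orange diamonds are the Chimera, blue circles Myf5 and green bars the range of 3 MyoD libraries. Grey ticks mark the highest GFP library (not under 0.02 CPM). The diamonds lie right of both circles for most rows and within or near the green bars, and at or left of the 2x circle for the receptor genes Chrnd, Chrng and Chrnb1.

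Replication and mitosis genes were lower with the Chimera. Of 30 past the filter, 16 were 2-fold lower than both Myf5 libraries and none higher, against the background of 4.47%, and the medians were -1.06 and -1.27. The gauge was -0.80, and none was lower than both after bridging. Relative to 1x GFP the median stood at -0.12 and 0.09 with 1x and 2x Myf5, -0.86 in MyoD_B and -1.18 in the Chimera. Mki67, a proliferation marker, read 102 and 103 CPM with Myf5, 52.5 CPM with the Chimera, 57.7 CPM in MyoD_B and 96.4 and 71.9 CPM in the first-table MyoD libraries. Cdc20, an activator of the anaphase complex, read 59.1, 62.2 and 17.0 CPM. Both second-table libraries are therefore low on this list, and table and virus cannot be told apart.

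Of 15 genes that accompany cell cycle exit, 1 was higher than both Myf5 libraries and 2 lower. Cdkn1c, the p57 inhibitor that muscle cells use to stop dividing, read 0.688, 1.93 and 10.8 CPM, but MyoD_B exceeded MyoD_A by 6.29-fold. Ccnd1, cyclin D1, which opposes exit, read 183 and 150 CPM with Myf5 and 63.4 CPM with the Chimera, and Cdk6, its partner kinase, 21.2, 18.2 and 6.23 CPM. MyoD_B was also lower than MyoD_A on both, with gauges of 0.613 and 0.464, and no gene of this list was 2-fold from both Myf5 libraries after bridging. Among 12 Notch and Id genes, the Notch ligands Dll1 (6.02, 10.9 and 41.4 CPM), Jag1 and Jag2 and the target Hes1 (5.52, 4.76 and 18.7 CPM) were higher than both. The gauges of Dll1 and Hes1 were 2.35-fold and 2.49-fold, and none of the 4 was 2-fold above both after bridging, while Notch3, a receptor, was. Id1, which blocks E proteins, read 26.1, 18.9 and 9.43 CPM and passed 2-fold against 1x only.

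Fibroblast and matrix genes were level or higher with the Chimera. Of 32, 5 were higher than both Myf5 libraries and none lower, with medians of 0.34 and 0.61 and a gauge of 0.13. The list's median relative to 1x GFP was 0.11 in the Chimera, -0.20 and -0.35 with Myf5, -0.31 in MyoD_B and -0.46 and -0.91 with first-table MyoD. Of the 24 members above both Myf5 libraries, 20 were also above all 3 MyoD libraries, as were 3874 of the 6592 genes above both Myf5 libraries overall. After bridging 2 members, Postn and Lum, were higher than both, with list medians of 0.13 and 0.30. Postn, the matrix protein periostin, read 718 and 572 CPM with Myf5, 2397 CPM with the Chimera and 459 to 968 CPM with MyoD, and 504 to 1426 CPM in the control libraries. Lum, a collagen-binding proteoglycan, read 5.52, 4.76 and 25.5 CPM, and 8.86 to 24.8 CPM in the control libraries. The Chimera level of Lum was thus close to that of the highest control.

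**Figure D5:**
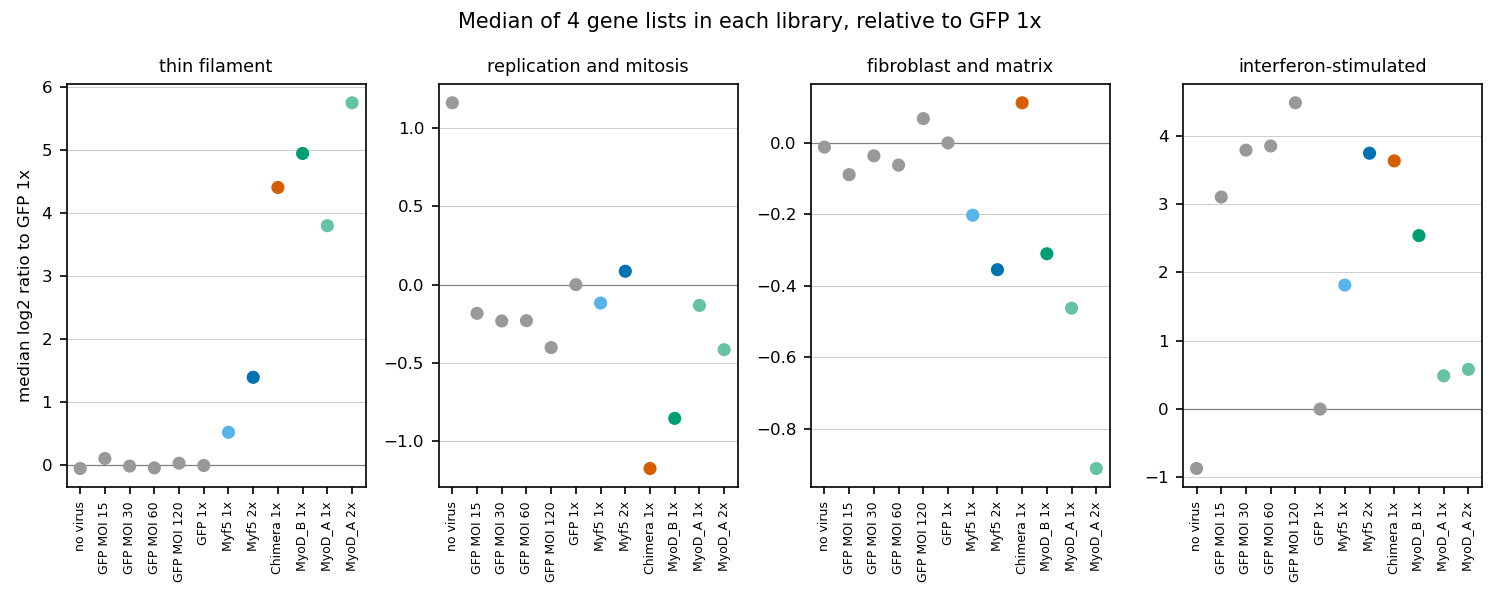
Median log2 ratio to 1x GFP of 4 gene lists (vertical axes) in each of the 12 libraries, 1 point per library. In the Chimera (orange) the thin filament median of 4.40 is near the MyoD libraries, the replication median of -1.18 is the lowest, the matrix median of 0.11 is above those of Myf5 and MyoD, and the interferon median of 3.63 is near that of 2x Myf5.

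Interferon-stimulated genes, which cells switch on when they sense viral nucleic acid, were higher with the Chimera than with 1x Myf5, and their median was near that of 2x Myf5 before bridging. Of 32, 26 were higher in the Chimera than in 1x Myf5 but none was higher than in 2x Myf5 and 4 were lower, with medians of 1.68 and -0.13. All 32 were 2-fold higher in MyoD_B than in MyoD_A (gauge median 1.92). After bridging the medians were -0.27 against 1x and -2.32 against 2x Myf5, and 3 members were lower than both. Relative to 1x GFP the median was 3.63 in the Chimera, 1.81 and 3.74 with 1x and 2x Myf5, 2.54 in MyoD_B and 3.10 to 4.48 in the GFP libraries with a stated MOI. Isg15 read 14.1, 113 and 102 CPM in 1x Myf5, 2x Myf5 and the Chimera. Whether the response bears on muscle genes was not tested.

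Fibroblast genes defined every library, with Col1a2, a chain of type I collagen, at 3648 to 5799 CPM, and few markers of other cell types passed the filter. None of the 7 epithelial markers passed the filter. Of the cardiac, endothelial, macrophage, adipocyte, cartilage and bone, and neural lists, 2 or 3 members each passed. Among these Tek, an endothelial receptor, was higher with the Chimera (0.395, 0.409 and 1.99 CPM), and so was Col11a1, a cartilage collagen (19.2, 21.3 and 119 CPM). The 1 other endothelial member and the 2 other cartilage and bone members that passed were lower in the Chimera than in both Myf5 libraries. Lyz2, a macrophage lysozyme (3.65, 3.12 and 0.582 CPM), and Fabp4, a fat cell lipid carrier (3.16, 2.12 and 0.332 CPM), were lower. The gauge went the same way on each, at 3.55-fold for Tek, 2.73-fold for Col11a1, 0.325 for Lyz2 and 0.351 for Fabp4. Smooth muscle markers had 3 of 10 higher than both, among them Myh11 and Ckb, and the muscle progenitor list 1 of 6, Pitx3. Summed over the endothelial list, the level was 7.48 CPM in the Chimera and 2.19 to 10.7 CPM across the libraries. The macrophage list summed to 12.1 CPM with a range of 11.7 to 19.7 CPM. Higher sums were those of the adipocyte list, 151 CPM (64.9 to 220), the cartilage and bone list, 217 CPM (90.6 to 222), and the neural list, 41.8 CPM (18.5 to 55.3).

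To see what stays where the gauge is near 1, protein-coding genes with MyoD_B and MyoD_A within 1.5-fold were ranked, a rule chosen after values were seen. The ranking of the largest ratios was limited to genes with at least 5 CPM in the Chimera. Within that limit, the 10 largest ratios to both Myf5 libraries were those of Slc22a4, Rxfp3, Ogn, C1qtnf3, Pvalb, Gpx7, Coro2b, Camk1g, Cdh15 and Sgca. Cdh15 and Sgca are described above, and Pvalb, a calcium buffer of fast fibres, is also on a muscle list (2.25, 6.64 and 33.4 CPM). Ogn, the matrix proteoglycan osteoglycin, read 65.5 and 81.3 CPM with Myf5 and 449 CPM with the Chimera, but 38.3 to 43.2 CPM with MyoD. It was 5.52-fold above 2x Myf5 (5.34 to 5.70). Among genes with at least 5 CPM in both Myf5 libraries, the 10 smallest were Arhgap22, Olr1, Lrp8, Mmp3, Serpinb9b, Lipg, Foxf2, Cep55, Tnfrsf12a and Il1rl1. Mmp3, the matrix protease stromelysin, read 478 and 374 CPM with Myf5, 78.1 CPM with the Chimera and 206 to 294 CPM with MyoD. Il1rl1, the receptor for interleukin-33, read 1563, 1484 and 477 CPM, and Arhgap22, a regulator of Rac, 7.35, 6.497 and 0.623 CPM. By the rule, MyoD across the same tables is not apart in these 20.

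No gene was 4-fold below every GFP library in both first-table MyoD libraries. At 2-fold, a rule added after seeing that, 51 genes qualified. In the Chimera 17 of these were higher than both Myf5 libraries and 3 lower, with medians of 0.76 and 1.15. The gauge median was 0.75, with 19 of the 51 at least 2-fold higher in MyoD_B than in MyoD_A. After bridging 5 were higher than both and 4 lower, with medians of -0.25 and 0.15. Bridged shares over all genes were 2.53% higher and 1.39% lower. The rule asks for a low MyoD_A level, which holds the gauge up and the bridged ratio down for this set. The bridged counts therefore cannot show whether the excess of higher genes depends on the tables.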

How the data were processed

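RNA from 12 libraries of MyoD-/-; Myf5-/- fibroblasts was sequenced by the study and read here from 2 deposited tables. The first deposited table holds expected counts per gene, fractional for 5542 of 37287 gene IDs, and the second deposited table holds whole counts for the Chimera and MyoD_B. Per the submitters' processing notes, CASAVA 1.8.2 and TopHat2 2.0.8 were used with build mm9. The counter and the gene annotation are not given in the sources used here. Symbols come from a reference table (32610 IDs matched). Counts were divided by library totals without 37 genes starting with mt-, and log2 ratios were taken with 0.1 CPM added, over genes with at least 1 CPM in 1 or more of the 3 libraries. With 1 library per condition no test was run, and exact conditional binomial 95% intervals cover counting error only, for reads without molecular identifiers. Fractional counts were rounded to whole numbers before levels and intervals were computed. Alternatives included TMM scaling (edgeR 4.0.16), median-of-ratios scaling (DESeq2 1.42.0), other filters, added values and folds, and the bridged ratio. Genes named are the regulators Myod1, Myf5 and Myog, the 3 largest and the smallest of each muscle list, and the largest and smallest of other lists. The 10 largest and 10 smallest overall and the 5 nearest 1 in the MyoD-raised set are named too. The overall rankings took genes with at least 5 CPM in the Chimera (largest) or in both Myf5 libraries (smallest). Other names, such as Chrng, H19, Igfbp5, Postn, Ccnd1, Mki67 and Isg15, were chosen after their values were seen. Members, lists and rules were chosen with earlier results of these data known. The scripts were tested on simulated data. Promoters are RefSeq sequence of GRCm38.p6, not the build of the counts.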

Additional observations from a re-analysis of the deposited data

How the results depend on the processing

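Scaling by TMM, by median of ratios or with mitochondrial genes kept moved none of the counts by over 1.5 times, and the median of all genes stayed between -0.03 and 0.04 on the log2 scale. Counts are given as higher and lower than 1x Myf5, then 2x Myf5, then both. With no filter beyond 1 count they were 2024 and 1449, 1942 and 1304, and 1523 and 1006, and 2 muscle genes were lower. With at least 1 CPM in all 3 libraries, 647 were higher than 1x, 567 than 2x and 459 than both, 408 were lower than both, and 30 muscle and 57 MyoD-raised genes were higher, with 79 MyoD-raised genes above both Myf5 libraries and 43 also within the MyoD range. With genes whole in the first table, 758 were higher than 1x, 597 than both, and 0 muscle genes were lower. The bridged ratio gave 528 and 329, 474 and 366, and 351 and 193, with 35 muscle genes higher, 0 lower and 19 MyoD-raised genes above both and within the MyoD range, and it turned the interferon median against 1x to -0.27 and Cdkn1c against 2x to -0.21. At 1.5-fold the counts were 2084 and 1810, 2000 and 1653, and 1686 and 1426, and at 4-fold 471 and 136, 409 and 118, and 366 and 100. With 0.5 CPM added, 10 Myf5-raised genes were higher. With genes whose MyoD levels lie within 1.5-fold across the tables, a setting added after seeing the data, the counts were 278 and 299, 276 and 223, and 195 and 182, with 9 muscle, 28 MyoD-raised and 6 Myf5-raised genes higher, 47 MyoD-raised genes above both, 19 also within the MyoD range, and thick filament values of -1.08 and -1.13, which are those of Myl6b, the 1 member left. Fewer genes are tested under that setting, and under the stricter filters; the cause of the changes under the bridged ratio was not tested. No paired analysis was possible because each condition is 1 library and the labels give no replicate numbers. Each condition is 1 library, so no replicate could be left out, and the depth of the second table limits genes under about 0.125 CPM.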

Other observations

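Genes of cholesterol synthesis and uptake, a list written after their values were seen, were low in the Chimera library. Of 26 genes, 25 passed the filter, and 23 of them (92.0%) were lower in the Chimera than in each of the other 11 libraries, which held for 2118 of 11982 protein-coding genes (17.7%). The number 2-fold lower than both Myf5 libraries was 17. The medians were -1.32 and -1.12 against 1x and 2x Myf5, and MyoD_B over MyoD_A was -0.29. Acat2, which joins acetyl groups at the start of the pathway, read 639 and 550 CPM with Myf5, 151 CPM with the Chimera and 322 to 711 CPM over the other 11 libraries. Lss, the cyclase that forms lanosterol, read 347, 367 and 118 CPM, with 284 to 410 CPM elsewhere. The exceptions were Fdft1 and Srebf2, which lay within the range of the other libraries.

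Small leucine-rich proteoglycans, which bind collagen fibrils, were high there, again a list written after values were seen. Of 16 genes, 11 passed the filter, 7 (63.6%) were above all 11 other libraries and 1, Podnl1, was below them. Of 11982 protein-coding genes, 2158 (18.0%) were above all 11. The medians were 1.61 and 1.93 against 1x and 2x Myf5, and MyoD_B over MyoD_A was 0.80. Aspn read 433 and 469 CPM with Myf5 and 2669 CPM with the Chimera, Kera 4.25, 1.81 and 48.2 CPM, and Omd 4.33, 4.03 and 13.5 CPM. Over the other 11 libraries Aspn read 343 to 857 CPM, Kera 1.81 to 25.7 CPM and Omd 1.91 to 7.71 CPM. The highest of these Kera levels was in GFP virus at MOI 15. Ecm2, Aspn, Omd and Ogn are consecutive protein-coding genes on chromosome 13 in GRCm38.p6. So are Dcn, Lum, Kera and Epyc on chromosome 10. Of that run Lum and Kera lay above all 11 other libraries, Dcn lay within their range and Epyc did not pass the filter. Over all protein-coding genes, the Chimera was 2-fold above every other library in 56 (0.467%) and below in 38 (0.317%), and MyoD_B in 9 and 10.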
